A study of Rattus norvegicus with 6 samples.

Results

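In brain small RNA libraries of 2VO rats, with or without tilianin, 10 miRNAs tied to the choroid plexus were followed library by library: both arms of miR-204 and miR-211 (4 miRNAs: rno-miR-204-5p, rno-miR-204-3p, rno-miR-211-5p and rno-miR-211-3p) and miRNAs hosted by Htr2c (6 miRNAs: rno-miR-1298, rno-miR-1912-3p, rno-miR-1912-5p, rno-miR-764-3p, rno-miR-764-5p and rno-miR-448-3p). The prefix rno, for rat, is left out from here on. All 10 have an entry among the 775 miRNAs of the deposited count table, and 8 of them had at least 1 count. These 8 each had at least 10 counts in the 2VO libraries alone. The members were listed by locus with their values in the tilianin-treated and 2VO libraries already known. Their differences between the groups are therefore given as a description with no p-value, and counts of members past the study's criterion are given in the same sense.

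The choroid plexus is the epithelium in the brain ventricles that secretes cerebrospinal fluid. It expresses Htr2c, a serotonin receptor gene, at a high level, and Htr2c is also active in some neurons. A miRNA hairpin inside an intron can be cut from the transcript of its host gene, so miRNAs of the same host often share their site of expression. miR-204 and miR-211 are known from the choroid plexus and the retinal pigment epithelium, and their host genes Trpm3 and Trpm1 encode TRPM channels.

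The 2VO group (n = 3 libraries) came from rats with both common carotid arteries ligated, a chronic reduction of brain blood flow used as a model of vascular dementia. These rats received vehicle, 0.5% CMC-Na at 5 mL/kg. The tilianin-treated 2VO group (n = 3 libraries) had the same operation and received tilianin, a flavonoid glycoside, by gastric tube at 40 mg/kg daily for 4 weeks in that vehicle. The study used male Sprague-Dawley rats aged 7 weeks at purchase. The labels give the tissue as brain and the paper's figure legend as cortical tissue, and whether ventricular tissue was kept is not given in the sources used here. The sources also do not say whether each library was 1 rat, so the spread between libraries may be partly technical. Sham libraries were not analysed here.

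Total counts were between 7175872 and 13198776 per library. Levels are given in CPM, counts relative to a library's total after TMM scaling, and 3 counts, taken as the limit that a count of 0 allows (one-sided), correspond to 0.232 to 0.462 CPM. The exact two-sided Poisson interval printed for single libraries reaches higher at 0 counts, for instance to 0.402 CPM in 2VO replicate 1. Treated replicate 2 stood apart from the rest, with Spearman correlations across the 454 tested miRNAs of 0.936 to 0.957 to the other libraries, which had 0.983 to 0.992 among themselves. Log2 differences of the members, group ratios of the summed levels and counts of members past the study's criterion are therefore given with and without it. Group means and SDs, pooled shares of hairpin arms and the searches for miRNAs of similar pattern are given only with this library included. The neuronal miRNAs miR-124-3p and miR-9a-5p were at 55804 CPM or more and 23669 CPM or more in every library. The brain label thus fits the level of both. Their lowest library was treated replicate 2, as it was for miR-128-3p, miR-153-3p and miR-138-5p, also listed as neuronal.

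The mature sequences show which members can be told apart by their reads and which could share targets. They were taken from RefSeq (GRCr8), where 9 of the 10 members matched by name, from 6 hairpins. The seed (bases 2 to 8, counted from the 5′ end), which leads target recognition, is in capitals.
miR-204-5p: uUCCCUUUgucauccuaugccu
miR-211-5p: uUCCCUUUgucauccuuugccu
miR-204-3p: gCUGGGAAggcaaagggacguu
miR-1298: uUCAUUCGgcuguccagaugua
miR-448-3p: uUGCAUAUguaggauguccca
miR-1912-3p: cACAGAACaugcagugaga
miR-764-3p: gAGGAGGCcauaguggcaacugu

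miR-204-5p and miR-211-5p share the seed UCCCUUU, and no other mature rat miRNA in the RefSeq table has it. They are identical at 21 of 22 positions, and the difference is A17U (the base of miR-204-5p first, counted from its 5′ end). Reads of either that are short or carry an error at that base could be counted on the other, so a low count of miR-211-5p is uncertain beside an abundant miR-204-5p. The other printed members share their seed with no other miRNA of that table, and none of the members had counts identical to those of another miRNA in all libraries.

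In GRCr8 the miR-204 hairpin (chr1:229743461-229743570, plus strand) lies inside Trpm3 and the miR-211 hairpin (chr1:127189328-127189433, plus strand) inside Trpm1. The hairpins of miR-764 (chrX:115490638-115490745), miR-1912 (chrX:115498019-115498106), miR-1298 (chrX:115556947-115557085) and miR-448 (chrX:115641955-115642066) lie inside Htr2c on the plus strand, with 151 kb between the first and the last start. These coordinates belong to the RefSeq sequences, since the authors' build is not given in the sources used here.

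miR-204-5p was the most abundant member in the 2VO group and was far higher in treated replicates 1 and 2, but not in treated replicate 3. Its level in CPM was 129, 146 and 118 for 2VO replicates 1, 2 and 3. For tilianin-treated replicates 1, 2 and 3 it was 342, 1064 and 118. The 2VO libraries lay within 1.24-fold of each other, whereas treated replicates 1 and 2 were 2.61-fold and 8.12-fold above the 2VO mean and treated replicate 3 was inside the 2VO range. The means were 131 ± 14.5 CPM and 508 ± 495 CPM (SD, n = 3 each). On the log2 scale the difference was 1.95 with a standard error of 0.709, and 0.83 when treated replicate 2 was left out.

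miR-211-5p, which has the same seed, was far less abundant, and all its treated libraries lay above all its 2VO libraries. Its CPM values were 1.31, 1.78 and 1.68 for 2VO replicates 1, 2 and 3, from 12, 23 and 13 counts. Those of treated replicates 1, 2 and 3 were 4.13, 8.47 and 3.30, from 38, 55 and 27 counts. Unlike miR-204-5p, it was 2.08-fold above the 2VO mean in treated replicate 3. The exact Poisson interval (95%, counting error only) of that library was 2.17 to 4.80 CPM, and that of 2VO replicate 2 was 1.13 to 2.66 CPM, so the lowest treated and the highest 2VO library overlapped in counting error. The means were 1.59 ± 0.247 CPM and 5.30 ± 2.78 CPM (SD, n = 3 each). The log2 difference of 1.72, with a standard error of 0.433, became 1.23 without treated replicate 2.

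miR-204-3p, from the other arm of the miR-204 hairpin, was close to the detection limit in the 2VO group, with 0, 8 and 3 counts (0, 0.617 and 0.388 CPM in 2VO replicates 1, 2 and 3). The treated libraries had 13, 26 and 7 counts (1.41, 4.00 and 0.854 CPM in replicates 1, 2 and 3). The groups did not overlap, and treated replicate 2 was again the highest. The Poisson intervals of treated replicates 1 (0.752 to 2.41 CPM) and 3 (0.344 to 1.76 CPM) overlapped that of 2VO replicate 2 (0.267 to 1.22 CPM). Neither treated library could be separated from 2VO replicate 2 at this depth. Only treated replicate 2 (2.62 to 5.87 CPM) stood clear of the 2VO libraries. The log2 difference was 2.50 with a standard error of 0.943, or 1.65 without treated replicate 2. miR-211-3p had 0 counts in all 6 libraries.

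**Figure D1:**
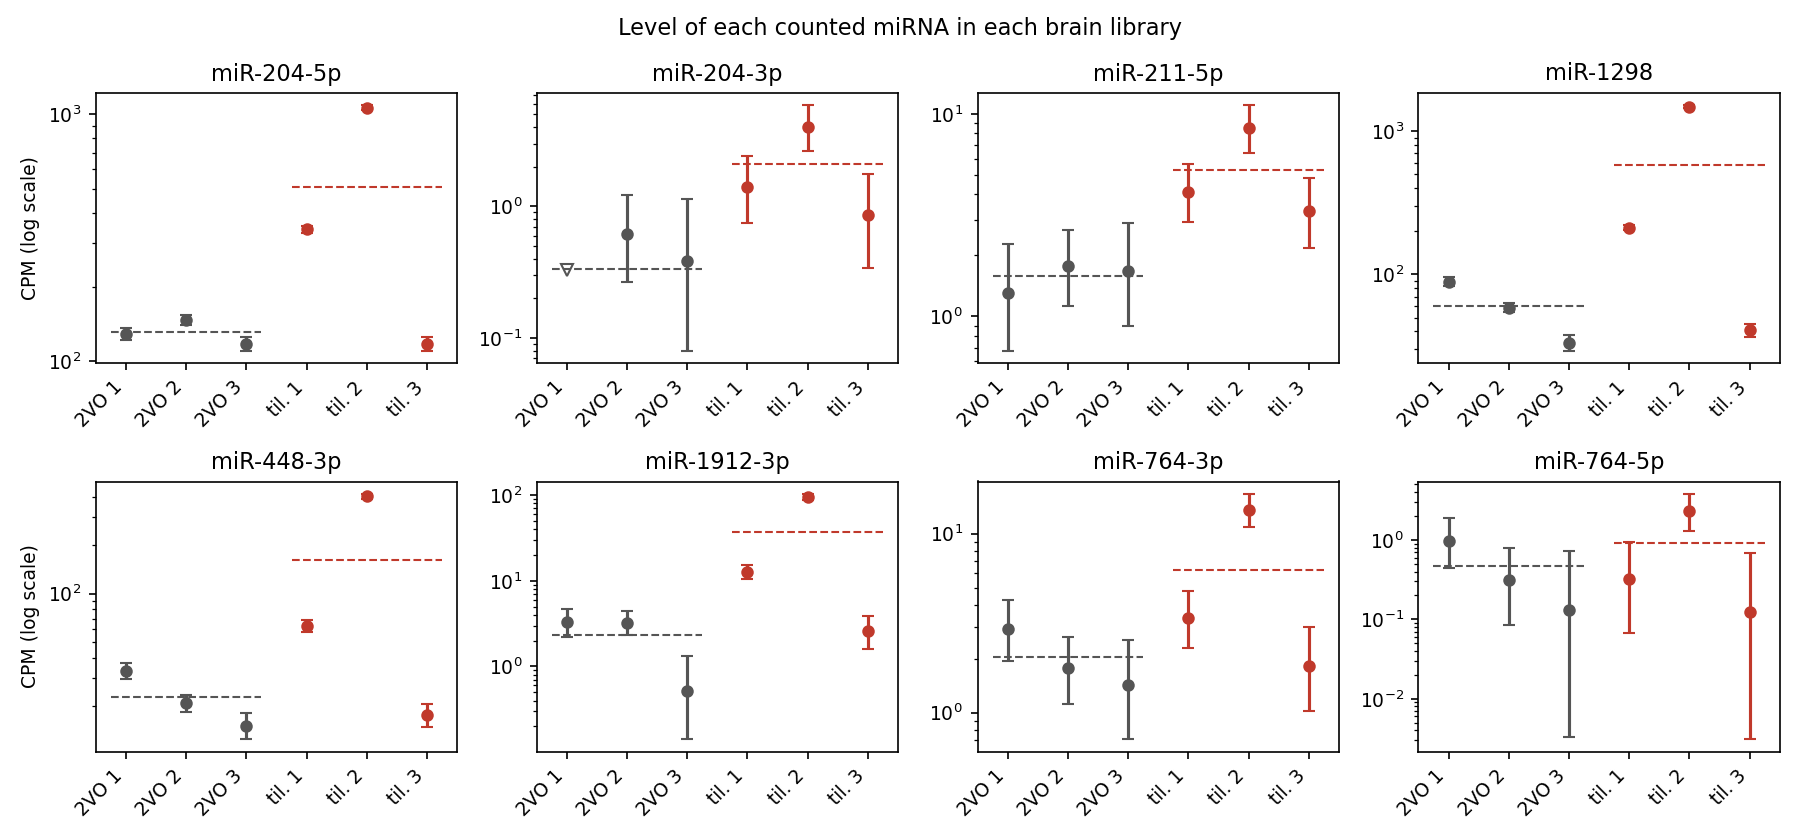
Level of the 8 counted members in CPM (log scale, a separate range in each panel) in the 3 2VO libraries (grey) and the 3 tilianin-treated libraries (red). Bars are exact 95% Poisson intervals (counting error only), dashed lines are group means, and the open triangle is the 3-count limit of a library with 0 counts. Treated replicate 2 is the highest library in every panel, and treated replicate 3 lies above the 2VO libraries for miR-204-3p and miR-211-5p only.

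Among the Htr2c-intron miRNAs, miR-1298 was the most abundant and showed the pattern of miR-204-5p with a larger span. Its CPM values were 88.9, 58.7 and 33.2 for 2VO replicates 1, 2 and 3 and 212, 1482 and 40.6 for treated replicates 1, 2 and 3. Treated replicate 2 was 24.6-fold and treated replicate 1 was 3.51-fold above the 2VO mean, while treated replicate 3 lay inside the 2VO range. The means were 60.3 ± 27.9 CPM and 578 ± 788 CPM (SD, n = 3 each). The log2 difference of 3.26 had a standard error of 1.18, and it was 1.08 without treated replicate 2, which held 85.4% of the treated group's summed CPM of this miRNA.

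miR-448-3p, from the last of the 4 hairpins along that strand, followed miR-1298 at a lower level. Replicates 1, 2 and 3 of the 2VO group were at 32.9, 20.8 and 15.0 CPM, and those of the treated group at 62.9, 403 and 17.6 CPM. The order of the 6 libraries was the same as for miR-1298. The means were 22.9 ± 9.14 CPM and 161 ± 210 CPM (SD, n = 3 each). Their log2 difference was 2.81 with a standard error of 1.05, or 0.83 without treated replicate 2.

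miR-1912-3p had the widest span of all members. Its CPM values were 3.27, 3.24 and 0.518 for 2VO replicates 1, 2 and 3, the last from 4 counts. They were 12.8, 95.8 and 2.56 for treated replicates 1, 2 and 3. Treated replicates 1 and 2 were above, and treated replicate 3 was inside, the 2VO range. The means were 2.34 ± 1.58 CPM and 37.1 ± 51.1 CPM (SD, n = 3 each). The log2 difference was 3.94 with a standard error of 1.31, or 1.68 without treated replicate 2. miR-1912-5p, the other arm, had 0 counts in all 6 libraries, also in treated replicate 2, where miR-1912-3p had 622.

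The miR-764 arms were not clear of the 2VO libraries in treated replicate 1, where the other 3 counted Htr2c-intron members were. The CPM values of miR-764-3p were 2.94, 1.78 and 1.42 for 2VO replicates 1, 2 and 3 and 3.37, 13.6 and 1.83 for treated replicates 1, 2 and 3. Its treated replicate 1 (Poisson interval 2.29 to 4.78 CPM) could not be separated from 2VO replicate 1 (1.94 to 4.28 CPM) at this depth, and only treated replicate 2 stood clear of the 2VO libraries. The log2 difference was 1.59 with a standard error of 0.749, or 0.36 without that library. For miR-764-5p there were 9, 4 and 1 counts in the 2VO group and 3, 15 and 1 counts in the treated group. Only treated replicate 2 exceeded the 2VO libraries in CPM. Its Poisson interval (1.29 to 3.81 CPM) overlapped that of 2VO replicate 1 (0.448 to 1.86 CPM), so these libraries could not be separated at this depth. The log2 difference of 0.86, with a standard error of 1.116, turned to -0.999 without treated replicate 2.

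Most of the counted members were thus high together in treated replicates 1 and 2, and most were not high in treated replicate 3. All 8 counted members were above their highest 2VO library in treated replicate 2, where 36.3% of all tested miRNAs were. In treated replicate 1 this held for 7 members (all but miR-764-5p), against 23.8% of all tested miRNAs. In treated replicate 3 it held for 2 members, miR-211-5p and miR-204-3p, against 24.9%. These were also the 2 members with all treated above all 2VO libraries, which held for 5.51% of all tested miRNAs. Treated replicate 2 was the highest of the 6 libraries for all 8 counted members and for 33.0% of all tested miRNAs. The rule chose the members for this pattern, so these counts describe it. They compare CPM values without regard to counting error.

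Among the members, an order inside the 2VO group was shared only within the Htr2c locus. For all 5 counted Htr2c-intron miRNAs, 2VO replicate 1 was the highest (for miR-1912-3p level with 2VO replicate 2) and 2VO replicate 3 the lowest of the 2VO libraries, with 2.67-fold between them for miR-1298 and 2.19-fold for miR-448-3p. miR-204-5p, miR-204-3p and miR-211-5p were instead highest in 2VO replicate 2. The share of all tested miRNAs with the order of the Htr2c locus was not counted. That order was not confined to the locus. For instance miR-7a-5p, which is not a member, was at 8532, 7541 and 3508 CPM in 2VO replicates 1, 2 and 3. In log2 CPM relative to the 2VO mean, the 3 2VO libraries of miR-204-5p lay between -0.15 and 0.17, and those of miR-1298 between -0.74 and 0.67.

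**Figure D2:**
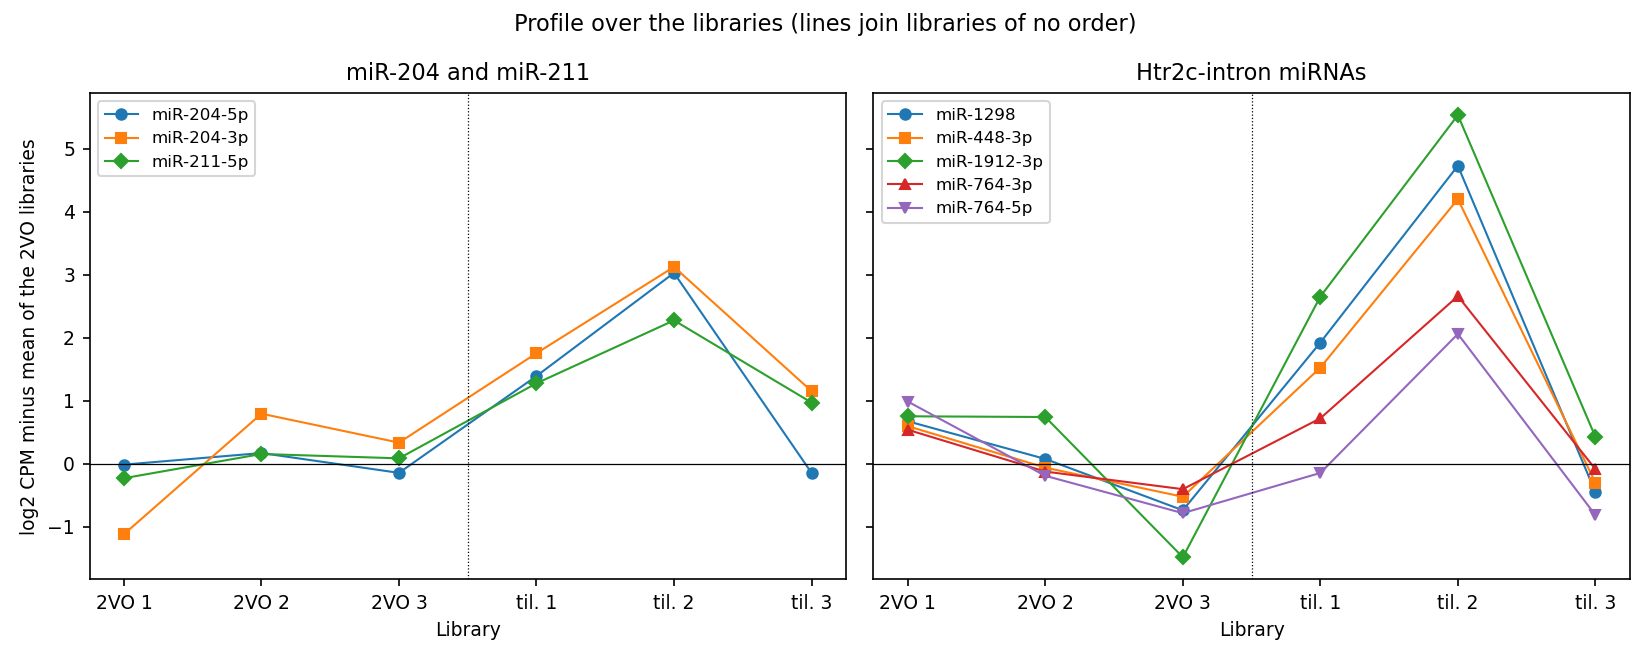
Difference of each library from the mean of the 2VO libraries in log2 CPM (prior count 2), for miR-204 and miR-211 (left) and the Htr2c-intron miRNAs (right); lines join the values of a miRNA, and the libraries have no order. In treated replicate 2 the differences run from 2.06 for miR-764-5p to 5.53 for miR-1912-3p, and in treated replicate 3 miR-204-5p is at -0.15 while miR-211-5p is at 0.97.

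Summed over each set, the CPM of miR-204 and miR-211 was 130, 149 and 120 for 2VO replicates 1, 2 and 3 and 348, 1077 and 122 for treated replicates 1, 2 and 3. That of the Htr2c-intron miRNAs was 129, 84.7 and 50.3 for the 2VO group and 291, 1997 and 62.7 for the treated group, in the same order. The group means differed 3.88-fold for the first sum and 8.90-fold for the second, and 1.77-fold and 2.01-fold without treated replicate 2. Both sums were carried by their most abundant miRNA. In this bulk RNA, more cells of a type and more miRNA per cell cannot be told apart.

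Over all 6 libraries the balance between the sums moved less than their level. Within the 2VO group it moved more than the miR-204 and miR-211 sum, which stayed within 1.24-fold. The Htr2c-intron sum spanned 2.56-fold there. The Htr2c-intron sum was 0.991, 0.569 and 0.420 times the miR-204 and miR-211 sum in 2VO replicates 1, 2 and 3. It was 0.838, 1.85 and 0.515 times that sum in treated replicates 1, 2 and 3. Treated replicate 1, with 2.61-fold and 3.31-fold the 2VO mean of the sums, thus had a ratio inside the 2VO range, and only treated replicate 2 was outside it. miR-1298 exceeded miR-204-5p in that library alone.

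Within the Htr2c-intron sum the make-up was similar between libraries, though not identical. miR-1298 held 64.8% to 74.2% of the counts, with 68.9% (exact binomial 95% interval 66.2 to 71.5%) in 2VO replicate 1 and 74.2% (73.5 to 75.0%) in treated replicate 2. miR-448-3p held 20.2% (19.5 to 20.9%) in treated replicate 2 and 21.6% (20.1 to 23.2%) in treated replicate 1, against 24.5% to 29.8% in the other 4 libraries. The ratio of miR-448-3p to miR-1298 was accordingly 0.297 and 0.272 in treated replicates 1 and 2 and 0.354 to 0.451 elsewhere. miR-764-3p took 1.16% and 0.679% of the sum in treated replicates 1 and 2 and 2.09% to 2.92% elsewhere. These intervals cover counting error only.

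**Figure D3:**
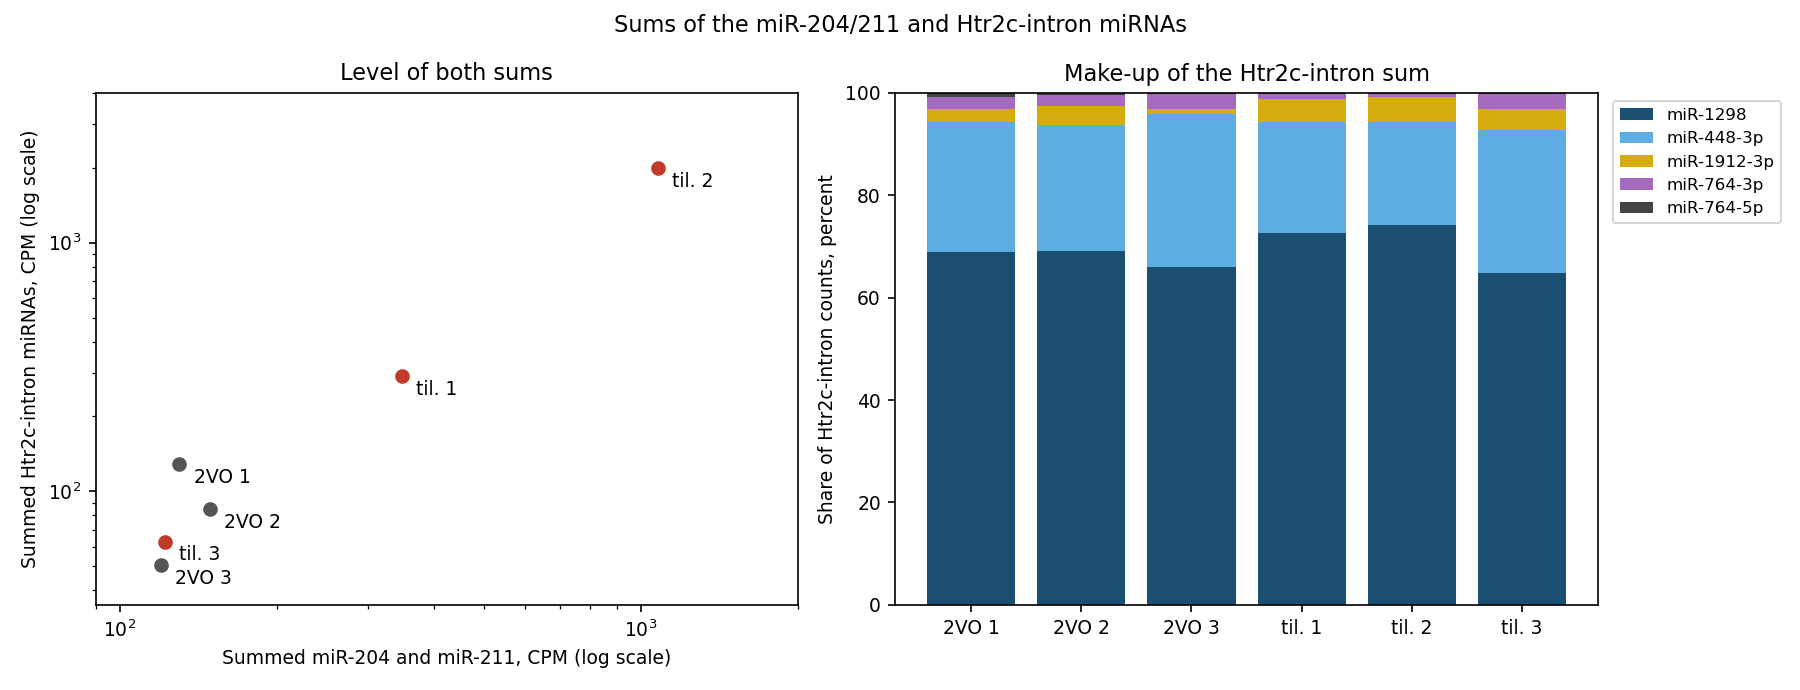
Left, the summed CPM of the Htr2c-intron miRNAs against that of miR-204 and miR-211 (log scales) in 2VO libraries (grey) and tilianin-treated libraries (red); right, the share of each miRNA in the counts of the Htr2c-intron sum. Treated replicate 3 (122 and 62.7 CPM) lies among the 2VO libraries, treated replicates 1 and 2 lie above them on both axes, and miR-1298 is the largest share in every library.

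The arms of the hairpins were compared as shares of counts, which do not depend on scaling. miR-204-3p made up 0%, 0.420% and 0.329% of the counts of both miR-204 arms in 2VO replicates 1, 2 and 3 and 0.411%, 0.375% and 0.720% in treated replicates 1, 2 and 3. Pooled over libraries, of which treated replicate 2 gave the most counts in its group, it made up 0.275% (exact binomial 95% interval 0.137 to 0.491%) over the 2VO libraries and 0.416% (0.304 to 0.554%) over the treated libraries, so a shift was not detectable at this depth. The share of miR-211-5p in the counts of miR-204-5p and miR-211-5p was 1.004% to 1.41% in the 2VO libraries and 1.19% and 0.790% in treated replicates 1 and 2. It was 2.72% (1.80 to 3.94%) in treated replicate 3. For miR-764 the 5p arm held 8.33% to 25% of the counts in single 2VO libraries and 6.25% to 14.6% in single treated libraries. Pooled, it held 18.7% (10.6 to 29.3%) and 12.4% (7.64 to 18.7%).

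For miR-448 the share of the 5p arm, which is not among the members, was lower in treated replicates 1 and 2 than in the other 4 libraries. The intervals overlapped in part. It held 6.21% (3.83 to 9.43%), 4.61% (2.48 to 7.75%) and 5.69% (2.32 to 11.4%) of the counts of both arms in 2VO replicates 1, 2 and 3. The shares were 2.53% (1.42 to 4.13%) and 1.95% (1.46 to 2.55%) in treated replicates 1 and 2, and 5.88% (2.72 to 10.9%) in treated replicate 3. The interval of treated replicate 1 overlapped those of all 2VO libraries and of treated replicate 3. That of treated replicate 2 overlapped those of 2VO replicates 2 and 3, but not those of 2VO replicate 1 and treated replicate 3. Pooled, the share was 5.502% (3.96 to 7.42%) in the 2VO group and 2.23% (1.76 to 2.78%) in the treated group, where treated replicate 2 gave most of the counts, and these intervals cover counting error only. In CPM, miR-448-5p was at 2.18, 1.003 and 0.906 in the 2VO group and at 1.63, 8.01 and 1.10 in the treated group. It therefore stayed inside the 2VO range in treated replicate 1, where miR-448-3p lay above it.

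In the 2VO group the members ordered by level as miR-204-5p, miR-1298, miR-448-3p, miR-1912-3p, miR-764-3p, miR-211-5p, miR-764-5p and miR-204-3p. CPM of different miRNAs also depends on how well each sequence is captured in a small RNA library, which was not measured, so the order is that of the counts. The libraries of miR-204-5p, miR-1298 and miR-448-3p did not overlap, although the lowest miR-1298 library (33.2 CPM) and the highest miR-448-3p library (32.9 CPM) were close. miR-1912-3p, miR-764-3p and miR-211-5p did not differ beyond their spread, nor did miR-764-5p and miR-204-3p. In the treated group miR-1298 had a higher mean than miR-204-5p, 578 against 508 CPM, but lay below it in 2 of the 3 libraries.

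At the study's criterion (unadjusted p below 0.05 and absolute log2 fold change above 1), edgeR's quasi-likelihood test called 6 of the 8 tested members higher in the tilianin-treated group: miR-204-5p, miR-204-3p, miR-211-5p, miR-1298, miR-1912-3p and miR-448-3p. Over all tested miRNAs 4.63% were called higher and 1.10% lower. The members were chosen on this contrast, so nothing is read from their count. With limma-voom 2 members were called, miR-204-3p and miR-211-5p, against 6 of all 454 tested miRNAs. The calls of miR-204-5p, miR-1298, miR-1912-3p and miR-448-3p thus ended. The number of members called was 2 without treated replicate 2 (miR-1912-3p and miR-211-5p, against 2.02% of all tested miRNAs). Without 2VO replicates 1, 2 and 3 it was 2, 2 and 1 (against 1.78%, 1.59% and 2.03%). It was 6 without treated replicate 1 (against 6.47%) and 7, with miR-764-3p added, without treated replicate 3 (against 5.58%). miR-211-5p was called in all 6 of these fits. The median log2 fold change was 2.23 over the 8 tested members and -0.03 over all tested miRNAs. Without treated replicate 2 it was 0.95 over the members, 7 of which were positive, and 0.01 over all tested miRNAs. The smallest Benjamini-Hochberg adjusted p of any miRNA, that of miR-3553, was 0.397 in edgeR's quasi-likelihood test.

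The miRNAs most like miR-204-5p over the 6 libraries were sought among the 268 other tested miRNAs with a mean of at least 10 CPM, by the root mean square difference of log2 CPM relative to the 2VO mean. miR-448-3p was at 0.575 (rank 4) and miR-1298 at 0.827 (rank 10). miR-1912-3p, at 1.35, had rank 112 because its span was wider. The nearest non-members were miR-133b-3p (0.498) and miR-1b (0.544), followed by a miRNA predicted by the authors (0.570), miR-486 (0.578) and miR-133c (0.578). The predicted miRNA and miR-133c had close values in every library, for instance 361 and 370 CPM in treated replicate 2. Whether they are separate miRNAs was not tested. miR-1 and miR-133 are known from muscle and miR-486 from red blood cells. The CPM values of miR-133b-3p were 15.4, 11.3 and 15.0 for the 2VO group and 19.0, 77.2 and 13.4 for the treated group, so it was high mainly in treated replicate 2. Among the less abundant members, miR-764-3p was at 0.418, miR-211-5p at 0.566 and miR-204-3p at 0.781.

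A joint elevation in treated replicates 1 and 2 was also sought among miRNAs with a mean of at least 10 CPM over all 6 libraries. Of 269 such miRNAs, 8 lay more than 1 log2 unit above the 2VO mean in both libraries. Members made up 4 of these 8 (miR-204-5p, miR-1298, miR-448-3p and miR-1912-3p). The other 4 were miR-10a-5p, miR-10b-5p, miR-486 and miR-3553. In treated replicate 3 the 4 members were inside the 2VO range and the 4 other miRNAs were not. miR-1912-3p, with a 2VO mean of 2.34 CPM, reached the minimum of 10 CPM only through its treated libraries. miR-211-5p and miR-204-3p, which were above the 2VO range in treated replicate 3, had means below that minimum. The threshold of 1 log2 unit was set after the values were seen, and the members were chosen for this pattern. The counts therefore only describe these libraries.

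**Figure D4:**
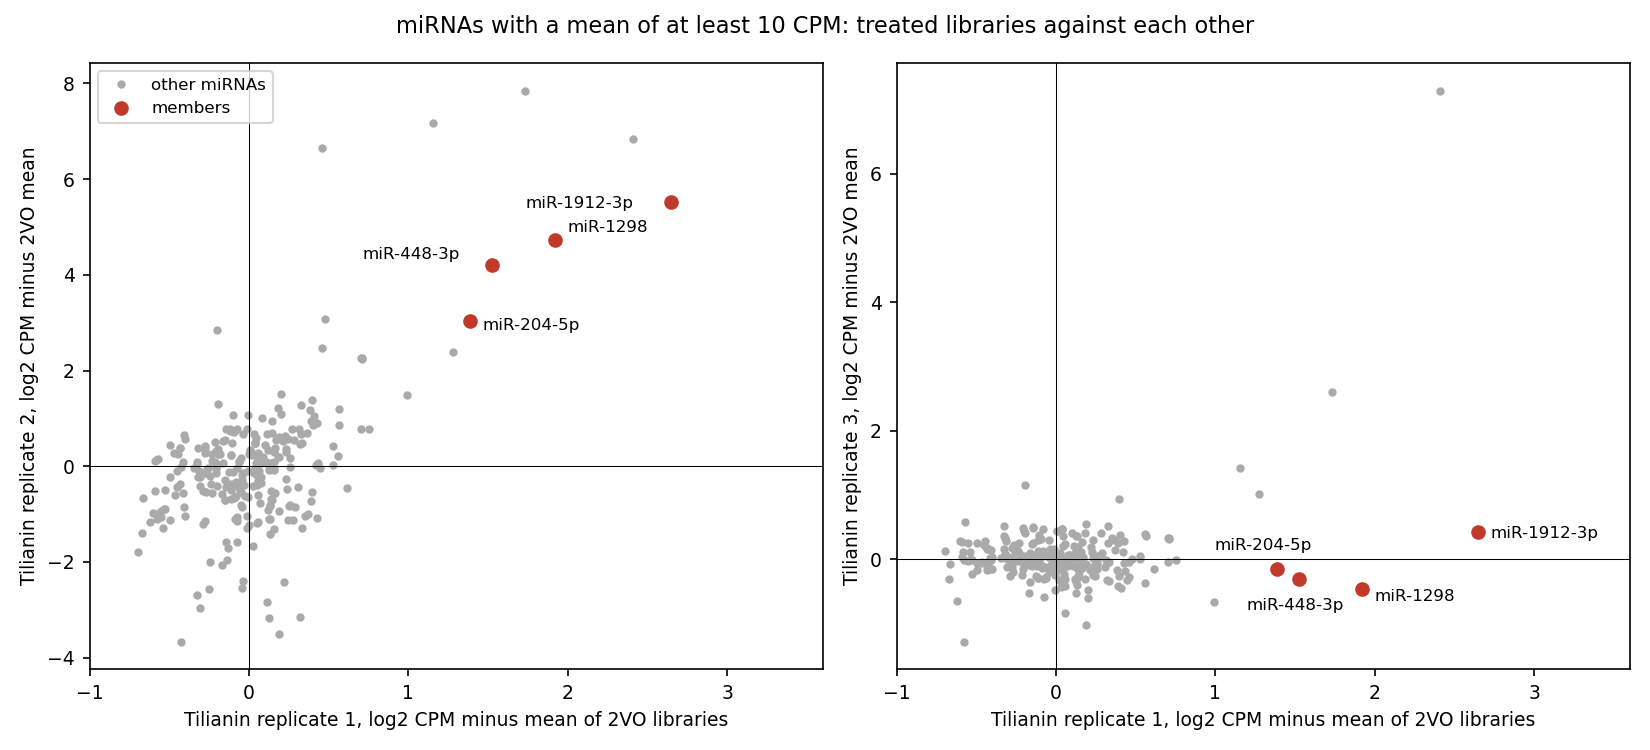
Difference from the mean of the 2VO libraries in log2 CPM for the 269 miRNAs with a mean of at least 10 CPM, with treated replicate 1 on the horizontal axis and treated replicate 2 (left) or treated replicate 3 (right) on the vertical axis. The 4 members (red) lie at 1.39 to 2.65 in treated replicate 1, at 3.03 to 5.53 in treated replicate 2 and at -0.45 to 0.42 in treated replicate 3.

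Other lists of tissue and cell type miRNAs were read in the same libraries. The label of the members rests on the members alone, because the ciliated epithelium list (miR-449 and miR-34b/c, which multiciliated cells express) was near 0: 6 of its 8 miRNAs had 0 counts in every library, and its sum was 0.647 to 2.78 CPM in the 2VO and 1.08 to 1.85 CPM in the treated libraries. Its 1 tested miRNA, miR-449a-5p, was at 1.85, 0.924 and 1.10 CPM in treated replicates 1, 2 and 3 and was not called. Of the 7 epithelial miRNAs, 4 had 0 counts throughout (miR-200a-3p, miR-200c-3p, miR-429 and miR-205), and the sum of 28.1 to 43.9 CPM in the 2VO and 39.0 to 50.8 CPM in the treated libraries was nearly all miR-203a-3p. Among the 5 further Htr2c names listed, miR-448-5p was the 1 with an entry, and it was not called.

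Several lists moved with treated replicate 2 or with the treated group. The Hox cluster list (miR-10a-5p and miR-10b-5p, known from hindbrain and spinal cord) summed to 89.8 to 149 CPM in the 2VO group and to 321, 21658 and 489 CPM in treated replicates 1, 2 and 3, with 2 of its 3 tested miRNAs called higher. miR-196b-5p of this list had 0 counts. The photoreceptor and pineal list, nearly all miR-3553, was at 21.1 to 33.1 CPM in the 2VO group and at 142, 3076 and 4217 CPM in the treated group, with both tested miRNAs (miR-3553 and miR-96-5p) called higher. miR-183-5p and miR-182 of that list had at most 0.488 and 0.154 CPM. Treated replicate 3, where miR-204-5p and the Htr2c-intron miRNAs were at 2VO levels, was thus the highest library of this list and above the 2VO range for the Hox list.

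The blood list summed to 480 to 654 CPM in the 2VO libraries and to 902, 1626 and 795 CPM in treated replicates 1, 2 and 3. Of 5 tested, miR-486 and miR-223-3p were called higher. The list did not move as a whole, and miR-451-5p had at most 0.616 CPM. miR-144-3p was at 0.326 and 0.488 CPM in treated replicates 1 and 3, inside its 2VO range of 0.232 to 2.29 CPM. The mural and mesenchymal list, with miR-199a-5p at 0, was at 2.16 to 4.14 CPM and 4.89 to 7.69 CPM in the groups, with miR-214-3p of 3 tested called higher. The neuronal list was at 128789 to 161770 CPM in the 2VO libraries and at 144215, 84147 and 159785 CPM in the treated libraries, with none of 5 called. In treated replicate 2 miR-128-3p was at 3885 CPM against 17574 CPM or more elsewhere. There miR-153-3p was at 674 CPM against 2022 CPM or more, and miR-138-5p at 115 CPM against 148 CPM or more. The oligodendrocyte sum was 18.2 to 35.3 CPM in the 2VO and 17.5 to 50.4 CPM in the treated libraries, highest in treated replicate 2, and the endothelial sum was 5372 to 8553 CPM and 6509 to 7203 CPM. None of the 2 tested miRNAs of either list was called. The pituitary and hypothalamus list, with miR-375-3p at 0, was at 3518 to 8561 CPM and 2715 to 3980 CPM, with miR-7b of 2 tested called lower. Of the listed miRNAs that were not called, only miR-7a-5p had an unadjusted p below 0.05 in edgeR's test, and its log2 fold change of -0.89 missed the fold threshold. Without treated replicate 2, the numbers called were 2 in the Hox list, 2 in the photoreceptor and pineal list, 1 in the mural list and 1 in the blood list (all higher), and 1 in the pituitary list (lower). Adjusted over all miRNAs, the called miRNAs of these lists had p-values of 0.397 to 0.637 in edgeR's quasi-likelihood test. The part of these tissues in the levels of the members was not tested.

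**Figure D5:**
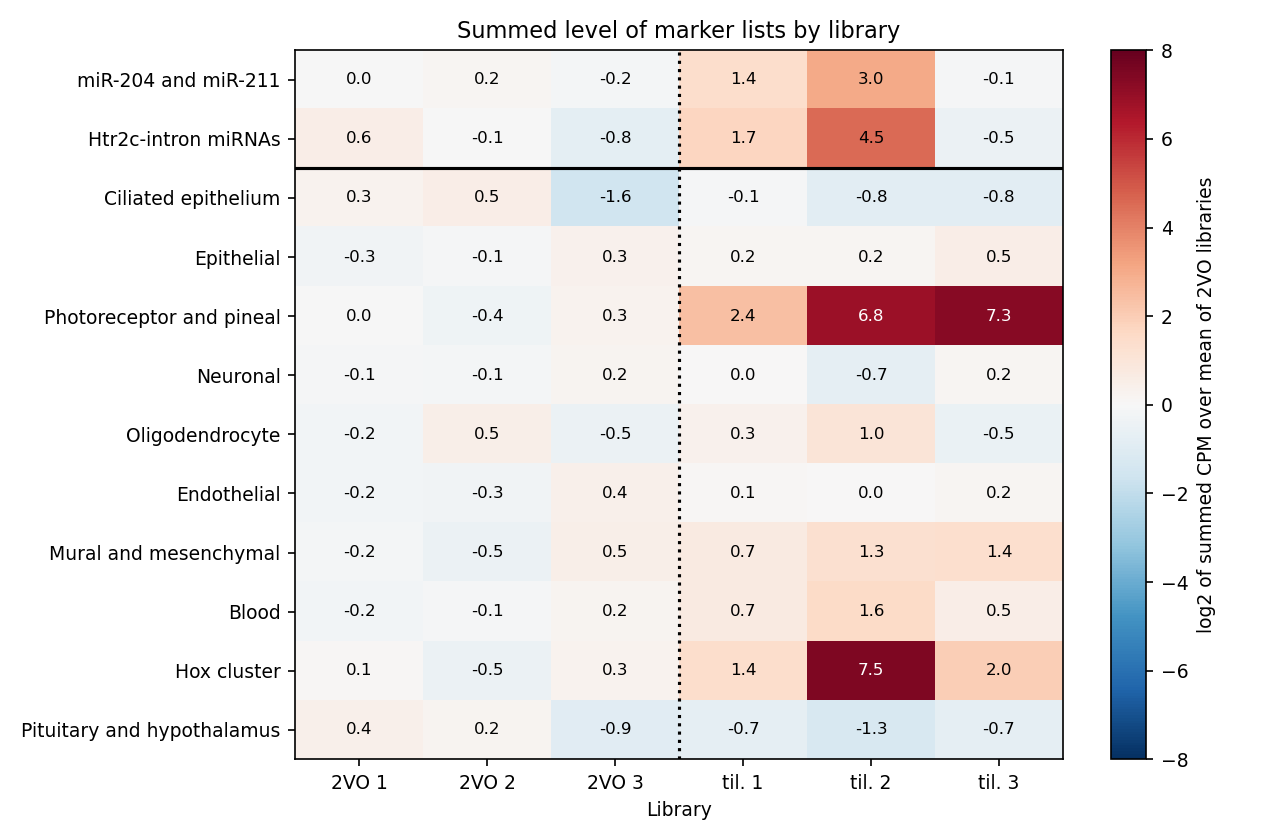
log2 of the summed CPM of each list over the mean of the 2VO libraries, for the members (top 2 rows) and the marker lists, in each library. The members and the Hox cluster list are highest in treated replicate 2, and the photoreceptor and pineal list is highest in treated replicate 3.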

How the data were processed

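Small RNA from rat brain was sequenced in 6 libraries (TruSeq Small RNA kits). The authors deposited raw counts of reads per mature miRNA, without normalization, in 1 column per library, and each column was matched to its sample by the library code in the labels. The submitters' processing notes name FastQC 0.11.2, Trimmomatic 0.36, cutadapt 1.14 and DESeq2 1.12.4. The aligner, miRNA reference and genome build are not given in the sources used here.

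In R 4.3.3, the 454 miRNAs whose counts summed to 10 or more were scaled by TMM and fitted by group in edgeR 4.0.16 (quasi-likelihood), at the study's criterion. DESeq2 1.42.0 and limma 3.58.1 served the alternatives. Standard errors are approximate, since they were derived from the F statistic. A prior count of 2 was used for log2 CPM profiles. The code was tested on simulated data.

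The members, the marker lists and the naming rule (members, listed markers and the 5 abundant non-members most like miR-204-5p) were chosen with earlier results of these data known. Mature sequences were copied from RefSeq. The alternatives were DESeq2's size factors, library totals, DESeq2's Wald test, limma-voom, no filter, filterByExpr, a prior count of 2 for fold changes, a block for the replicate number, and leaving out each library.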

Additional observations from a re-analysis of the deposited data

How the results depend on the processing

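Members called higher were 2 with limma-voom (miR-204-3p and miR-211-5p) and 3 with the replicate block (these and miR-1912-3p), and 1 to 7 with each library left out in turn. They were 7 with the Wald test of DESeq2, 5 of the 6 members tested with filterByExpr, and 6 with each remaining setting. Of 454 tested miRNAs, 6 were called higher with limma-voom, 9 with the replicate block and 19 with the Wald test of DESeq2. Called higher were also 14 of 373 with filterByExpr, 25 of 551 without a filter, and 7 to 29 with a library left out. Those called lower were 2 with filterByExpr, 3 with limma-voom, 8 with library totals and 3 with the Wald test of DESeq2 (2 to 5 with a library left out). The log2 ratio of the group means of the Htr2c-intron sum was 3.15, and 1.02 to 3.69 with a library left out. For the miR-204 and miR-211 sum it was 1.95, and 0.84 to 2.42. The extremes of both were without treated replicates 2 and 3. In the 62 fold changes of single members under the other settings, all were positive and moved by less than the spread between replicates. That spread includes treated replicate 2 and is wide, so sizeable shifts can fall within it. For miR-1298 it was 1.90 log2 units. The log2 difference of miR-1298 was 3.26 in the main fit, 2.05 with limma-voom, 1.93 with the replicate block and 3.10 to 3.28 in the remaining settings. With a library left out, 43 of 48 fold changes moved by less than the spread and 5 moved further, all without treated replicate 2. Of these 5, 1, that of miR-764-5p, was negative. The counts of members above the highest 2VO library were the same with all 3 scalings. Samples sharing a replicate number were not treated as paired in the main fit. Their deviations from the group means had correlations of -0.0891, 0.0134 and 0.192 (numbers 1, 2 and 3). With 3 libraries per group these values cannot show whether the samples were paired. For all these shifts, the cause was not tested. At these depths, differences in miR-204-3p, miR-764-5p and miR-764-3p outside treated replicate 2 were limited by counts of 31 or fewer per library. For miR-764-5p this limit also held in treated replicate 2, with 15 counts.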
